A study of Bos taurus with 6 samples.

Results

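The amino acid transporter families held 39 genes in the count table of longissimus thoracis (LT) muscle, out of 22839 gene symbols. They were taken by symbol: SLC3A1, SLC3A2 and each name that starts with SLC1A, SLC7A, SLC36A, SLC38A or SLC43A followed by a digit. SLC7A6OS came in through its name only, since it is the gene on the opposite strand of SLC7A6 and not a carrier, which leaves 38 genes for carriers and their partner chains. The libraries came from Korean native (Hanwoo) steers on commercial feed, 3 with a high and 3 with a low number of fine marbling particles (NFMP), the small fat flecks counted in a photograph of the rib eye. The high-NFMP steers were 3-8, 10-8 and 10-9, aged 32.5, 33.8 and 34.5 months, and the low-NFMP steers were 3-1, 3-3 and 10-16, aged 37.8, 33.7 and 35.4 months. Each steer gave 1 library of the whole muscle, with its fibres, fat cells, vessels and connective tissue together, and the labels name no treatment.

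Amino acids do not cross the membranes of a muscle fibre without carriers. Sodium-coupled carriers of the SLC38A and SLC1A families draw in small neutral amino acids, glutamine and glutamate against a gradient, while exchangers of the SLC7A family and facilitated carriers of the SLC43A family pass leucine and other large neutral amino acids across. Most exchangers are made of a light chain of the SLC7A family bound to a heavy chain of the SLC3A family, which brings the pair to the cell surface. Carriers in the lysosome membrane, among them members of the SLC36A and SLC38A families, return amino acids to the cytosol and take part in the control of the growth kinase mTORC1.

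The libraries held between 16283873 and 17192750 counted reads, and the family held between 7963 of them (steer 10-8) and 12826 (steer 3-1), which is between 0.0482% and 0.0747% of a library. The exact 95% binomial intervals of these shares were 0.0471% to 0.0492% and 0.0734% to 0.0760%, and they cover counting error only. The reads came from a 3′ mRNA method, in which each transcript is read near its poly(A) tail whatever its length, so levels were compared between genes without division by length. Such a comparison takes the 3′ end of each gene to be counted in full, which was not tested. Values are given as normalized counts, meaning reads scaled to a common library of 16799032, where 16.8 normalized counts stand for about 1 CPM (a count per 1000000 reads of a library). The tissue was skeletal muscle by its defining genes ACTA1, CKM, MB, TTN and DES, which summed to between 90684 and 107407 CPM.

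Most reads of the family fell on 3 genes. SLC38A2, the system A carrier SNAT2 for alanine, glutamine and other small neutral amino acids, stood at 2524 ± 267.2 normalized counts (SD, n = 6). SLC43A2, the facilitated leucine carrier LAT4, stood at 2414 ± 409.5 (SD, n = 6). SLC7A8, the light chain LAT2 that exchanges large and small neutral amino acids, stood at 1998 ± 814.5 (SD, n = 6). Together they held 62.0% ± 2.93 of the family's counts (SD, n = 6 steers), from 56.9% in the lowest steer to 64.8% in the highest. Their order among themselves was not firm: SLC38A2 lay above SLC43A2 in 4 of 6 steers, and SLC43A2 above SLC7A8 in 4 of 6. Against the next gene, the heavy chain SLC3A2, SLC38A2 and SLC43A2 were higher in 6 of 6 steers and SLC7A8 in 5 of 6.

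With the 5 genes that followed, SLC3A2, SLC3A1, SLC1A3, SLC7A6 and SLC7A2, the share reached 84.6% ± 1.71 (SD, n = 6). It was 83.3% ± 0.825 in the high-NFMP group and 85.8% ± 1.48 in the low-NFMP group (SD, n = 3 each). By class, the SLC38A genes held 28.7% ± 2.73 of the family's counts, the SLC43A genes 23.3% ± 2.57, the SLC7A light chains 21.8% ± 5.02 and the SLC3A heavy chains 13.5% ± 2.11 (SD, n = 6 each). The SLC1A genes held 6.05% ± 1.08, the cationic SLC7A carriers 3.46% ± 0.742 and the SLC36A genes 1.28% ± 0.280. The light chains varied the most between steers, and SLC7A8, which made up most of their counts, held between 10.1% and 24.4% of the family.

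**Figure D1:**
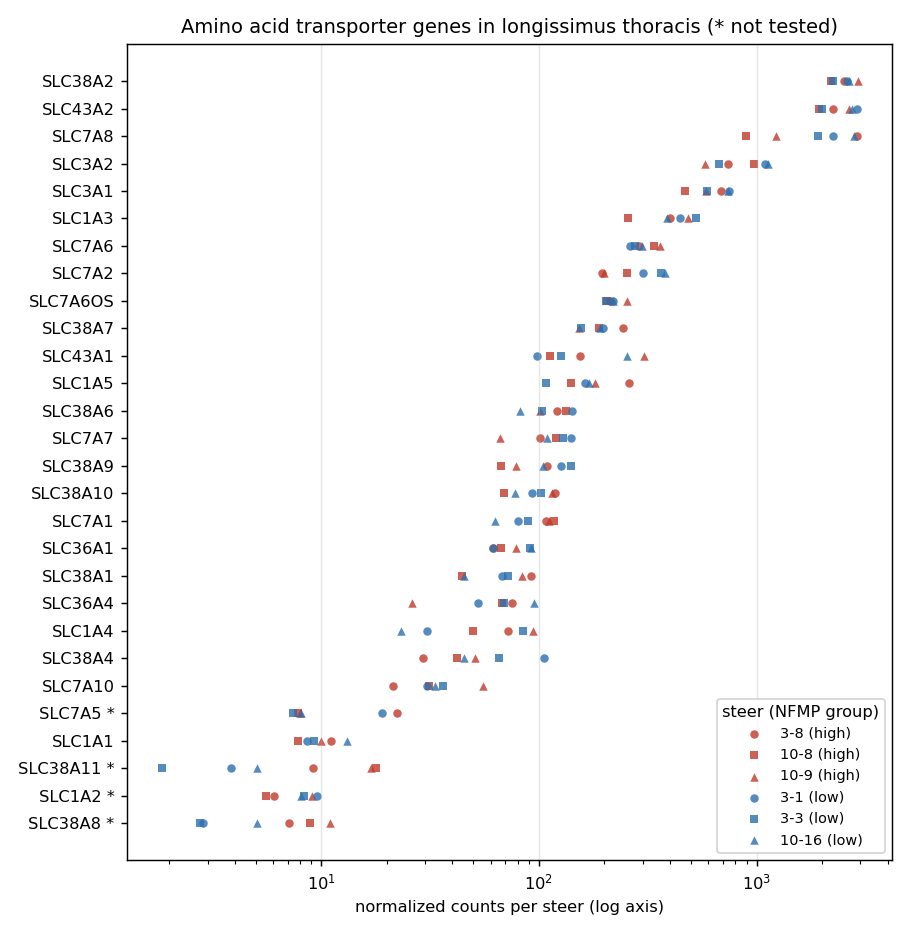
Normalized counts of the 28 most counted family genes in each of the 6 steers, on a log axis, with high-NFMP steers in red and low-NFMP steers in blue and genes in order of their mean. SLC38A2, SLC43A2 and SLC7A8 lie at the right, and the points of both groups are mixed for most genes.

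**Figure D2:**
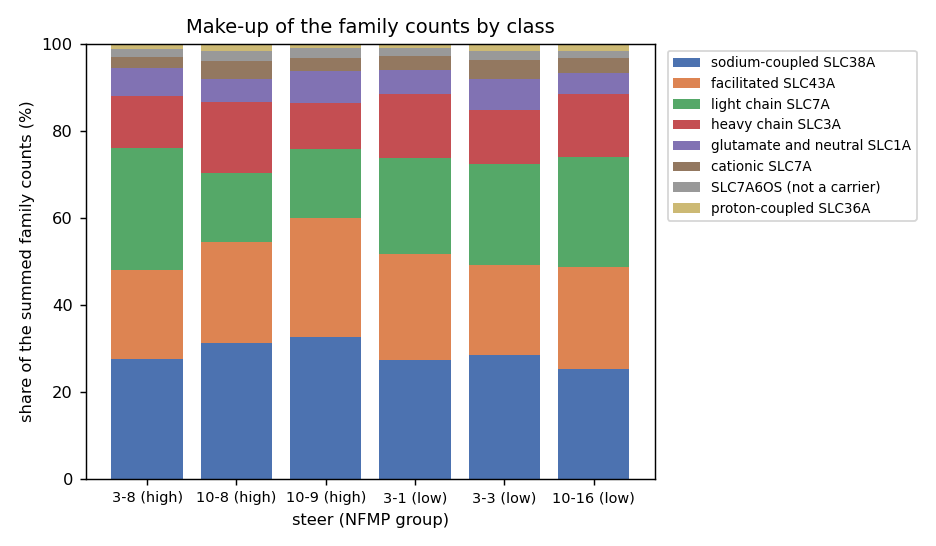
Share of the summed family counts (%) held by each class in each steer, as stacked bars. The light chains of SLC7A take 28.2% in steer 3-8 and 15.9% in steers 10-8 and 10-9, and the other classes differ less.

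When the 3 high-NFMP steers were set against the 3 low-NFMP steers, a default filter on low counts kept 24 of the 39 genes and 15039 of 23015 rows in all. The threshold of the study was kept, which asks for an unadjusted p below 0.05 and for a change of more than 2-fold. No family gene passed it in edgeR's quasi-likelihood test, where 3.90% of all tested rows did (2.53% higher and 1.36% lower in high NFMP), and none passed with DESeq2, where 3.79% of rows did. At an unadjusted p below 0.05 without the fold limit there were 2 of 24 genes, SLC7A2 and SLC38A4, both lower in the high-NFMP group, against 11.5% of all tested rows (5.73% higher and 5.74% lower). DESeq2 gave the same 2 genes at that p, and 11.3% of all rows. In limma on quantile-normalized values no family gene passed both limits (3.73% of rows did), and SLC7A2 and SLC38A9 had an unadjusted p below 0.05, as had 11.7% of rows. No family gene had an adjusted p below 0.05 in edgeR, where 0.685% of tested rows did. Of the 24 genes, 12 had a log2 fold change above 0 and 12 below, with a median of -0.03 beside 0.02 for all tested rows. In whole muscle, fewer cells of a type and less RNA per cell cannot be told apart in any of these values.

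**Figure D3:**
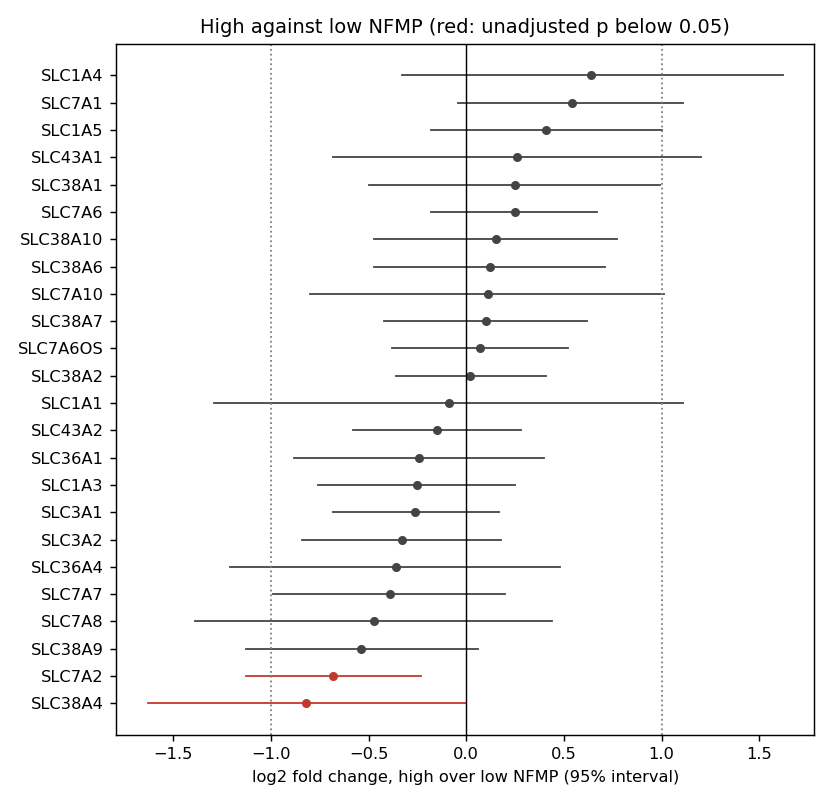
Log2 fold change of high over low NFMP for the 24 tested family genes, with 95% intervals from edgeR and dotted lines at the fold change limit of 2. SLC7A2 and SLC38A4, in red, have an unadjusted p below 0.05, and no point lies beyond a dotted line.

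Among the sodium-coupled SLC38A genes, SLC38A2 was the steadiest of the abundant carriers. It stood at 2526, 2195 and 2914 normalized counts in high-NFMP steers 3-8, 10-8 and 10-9 and at 2595, 2254 and 2659 in low-NFMP steers 3-1, 3-3 and 10-16. The groups overlapped, and the log2 fold change was 0.02 (standard error 0.18), with a 95% interval from -0.36 to 0.41. Its highest steer was 1.33 times its lowest, whereas the median of that ratio was 1.56 over the 1907 tested rows with a mean of at least 1000 normalized counts. The other system A carriers were far below it, SLC38A1 (SNAT1) at 67.6 ± 19.5 and SLC38A4 (SNAT4) at 56.5 ± 26.7 (SD, n = 6 each).

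SLC38A4 differed between the groups at an unadjusted p of 0.0498 by edgeR (adjusted p = 0.435). It was counted at 29.4, 42.2 and 51.1 in high-NFMP steers and at 105.3, 65.7 and 45.4 in low-NFMP steers, so steer 10-16 lay among the high-NFMP values. The log2 fold change was -0.82 (standard error 0.38). The unadjusted p by edgeR was above 0.05 without steer 3-8, 10-8, 3-1 or 3-3, up to 0.311 without steer 3-1 (log2 fold change -0.44), and 0.423 with age as a term (log2 fold change -0.36). Without steer 10-16 the gene was past the p and fold limits at -1.02, in a fit where 1.52% of rows were so in that direction. Among steers whose label starts with 3, the log2 ratio of high over low was -1.54, and among those whose label starts with 10 it was 0.04; what that number stands for is not stated.

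The lysosomal members of the family did not pass the threshold. SLC38A9, the lysosomal arginine sensor that acts on mTORC1, was at 109.4, 66.7 and 78.2 normalized counts in high-NFMP steers and at 126.3, 139.7 and 104.0 in low-NFMP steers. Only steer 3-8 of the high-NFMP group reached into the range of the other group. The log2 fold change was -0.54 (standard error 0.28, unadjusted p = 0.0723 and adjusted p = 0.487 by edgeR). SLC38A7, a lysosomal glutamine exporter, was at 194.5 ± 45.8 against 181.5 ± 22.7 (SD, n = 3 each). The proton-coupled SLC36A1 (PAT1) and SLC36A4 (PAT4) had means of 75.1 and 64.3, with log2 fold changes of -0.24 and -0.36. With a steer left out SLC36A4 ranged from -0.63 to -0.00 (without steer 10-9), and with age as a term it was at -0.83. SLC38A6 and SLC38A10, whose substrates are less well known, had log2 fold changes of 0.12 and 0.15.

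Of the facilitated carriers, SLC43A2 stood at 2253, 1939 and 2669 normalized counts in high-NFMP steers and at 2901, 1988 and 2735 in low-NFMP steers. The ranges overlapped almost wholly, and the log2 fold change was -0.15 (standard error 0.20), with a 95% interval from -0.58 to 0.28. SLC43A1 (LAT3), a carrier of the same substrates, had 174.8 ± 84.5 (SD, n = 6), and its highest values came from 1 steer of each group, 304.9 in steer 10-9 and 253.4 in steer 10-16. SLC7A5 (LAT1), the light chain best known for leucine uptake, was counted only between 7 and 22 times per library and was removed by the filter. SLC43A3, which carries purine nucleobases rather than amino acids, had at most 7 counts.

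SLC7A8 was the most variable of the 3 dominant genes. It stood at 2893 normalized counts in steer 3-8 but at 897.9 and 1226 in the other high-NFMP steers, 10-8 and 10-9. The low-NFMP steers stood at 2253, 1920 and 2797. Thus the high-NFMP group held both the highest and the lowest value of the 6 steers. The ratio of the highest to the lowest steer was 3.22, and 46 of the 1907 rows with a mean of at least 1000 normalized counts (2.41%) had a ratio as large.

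Over all 6 steers the log2 fold change of SLC7A8 was -0.47 (standard error 0.40, adjusted p = 0.691 by edgeR), with a 95% interval from -1.39 to 0.44. Without steer 3-8 it was -1.13 (standard error 0.22), with an unadjusted p of 0.000379 and an adjusted p of 0.0881 by edgeR, which is past the p and fold limits. In that fit 2.45% of tested rows passed in that direction. With any other steer left out, the log2 fold change lay between -0.60 and -0.16. Among steers whose label starts with 3 the log2 ratio of high over low was 0.47, and among those that start with 10 it was -1.40. Steer 3-8 also had the highest sum of 8 adipocyte markers, 726.5 CPM against 281.0 to 398.2 in the other 5 steers, with ADIPOQ at 1608 normalized counts and LEP at 193.6. In steer 10-16, which had the second highest SLC7A8 value, the adipocyte sum was the lowest of the 6. The part of fat cells in the SLC7A8 values was not tested. A small nuclear RNA gene, LOC112448584, lies within SLC7A8 and had at most 14 counts.

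**Figure D4:**
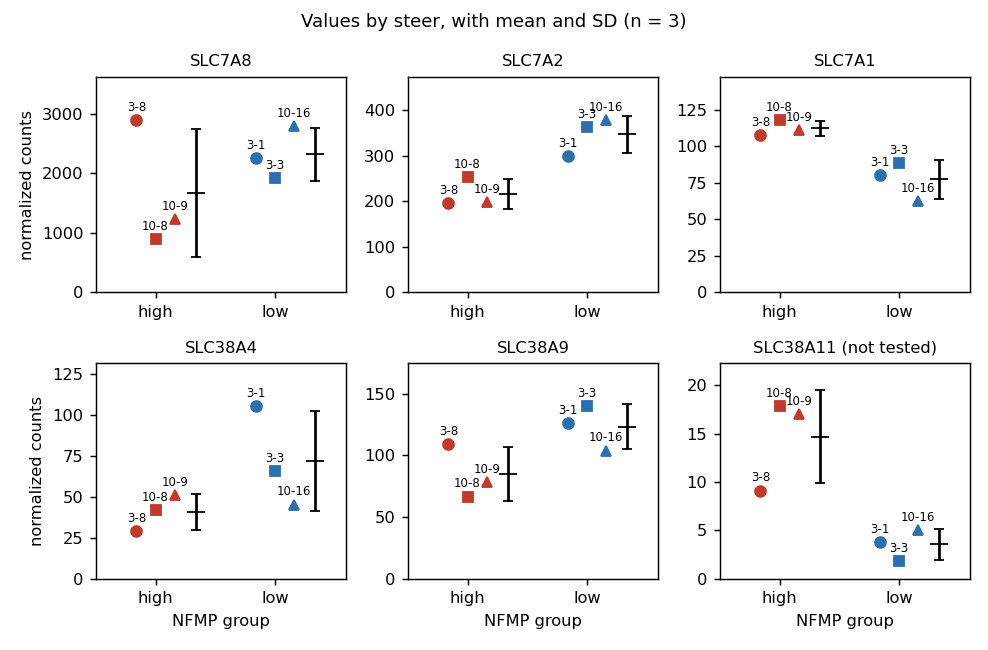
Normalized counts of 6 family genes in each steer, with the mean and SD of each group (n = 3) in black and axes that start at 0. SLC7A2 and SLC7A1 separate the groups in opposite directions, SLC7A8 is high in steer 3-8 alone of its group, and SLC38A11 was below the filter on low counts.

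The heavy chain of these exchangers, SLC3A2 (4F2hc, CD98), stood at 739.8, 972.4 and 577.7 normalized counts in high-NFMP steers and at 1088, 670.9 and 1124 in low-NFMP steers. The groups overlapped, and the log2 fold change was -0.33 (standard error 0.24), with a 95% interval from -0.84 to 0.18. For SLC3A2 that change ranged from -0.54 to -0.15 with a steer left out and was -0.09 with age as a term. Its light chains together (SLC7A5, SLC7A6, SLC7A7, SLC7A8, SLC7A10 and SLC7A11) were counted 1.44 to 4.50 times as often as SLC3A2, lowest in steer 10-8 and highest in steer 3-8. SLC7A8 made up between 64.1% (steer 10-8) and 86.9% (steer 3-8) of these light chain counts.

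The light chains SLC7A6 (y+LAT2) and SLC7A7 (y+LAT1), which exchange cationic for neutral amino acids, were rarer. SLC7A6 stood at 288.8, 338.9 and 361.0 normalized counts in high-NFMP steers and at 261.2, 275.8 and 296.8 in low-NFMP steers, and only its value in steer 3-8 lay within the range of the other group. On average SLC7A6 was at 329.6 ± 37.0 against 277.9 ± 17.9 and SLC7A7 at 95.8 ± 27.3 against 125.8 ± 15.5 (high against low NFMP, SD, n = 3 each), with log2 fold changes of 0.25 and -0.39. SLC7A6 overlaps SLC7A6OS in the RefSeq table, and SLC7A6OS stood at 224.4 ± 26.5 against 213.3 ± 8.39, so reads of these neighbours may have been counted on either gene. SLC7A10 (Asc-1), a serine and alanine carrier known from fat cells and brain, was at 21.3, 31.1 and 55.2 in high-NFMP steers and at 30.6, 36.1 and 33.3 in low-NFMP steers. Steer 3-8, with the highest adipocyte marker sum, had the lowest SLC7A10 value. SLC7A11 (xCT), the cystine carrier, had at most 11 counts.

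SLC3A1 (rBAT), the heavy chain known from kidney and intestine, was the fifth most counted gene of the family. It stood at 685.0, 469.0 and 584.7 normalized counts in high-NFMP steers and at 743.5, 593.2 and 741.0 in low-NFMP steers, and the log2 fold change was -0.26 (standard error 0.20). Its own light chain, SLC7A9, was counted 8, 5 and 4 times in high-NFMP steers and 0, 1 and 5 times in low-NFMP steers. In the RefSeq table SLC3A1 overlaps PREPL, a peptidase-like gene, which was counted 1893, 1614 and 1888 times in high-NFMP steers and 2543, 2392 and 2499 times in low-NFMP steers. For PREPL all high-NFMP values lay below the low-NFMP ones, with a log2 fold change of -0.36 (unadjusted p = 0.0540 by edgeR). The share of SLC3A1 reads that belongs to PREPL was not tested, since the sources do not say if reads were assigned by strand.

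The cationic carriers SLC7A2 and SLC7A1 separated the groups in opposite directions. SLC7A2 (CAT2), which takes up arginine, lysine and ornithine, was at 195.6, 254.5 and 199.6 normalized counts in high-NFMP steers and at 300.5, 362.7 and 378.6 in low-NFMP steers. All 3 high-NFMP values lay below all 3 low-NFMP values. The log2 fold change was -0.68 (standard error 0.21, 95% interval from -1.13 to -0.23), with an unadjusted p of 0.00565 and an adjusted p of 0.210 by edgeR. The difference was short of the fold limit, and it did not pass the adjusted test. Its log2 fold change lay between -0.78 and -0.58 in the 6 fits that each lacked a steer, and the unadjusted p by edgeR was at most 0.0360. Among steers whose label starts with 3 the log2 ratio was -0.76, and among those that start with 10 it was -0.74. The long noncoding RNA gene LOC112444585, which lies within SLC7A2, was lower as well, at 29.8 ± 4.07 against 51.1 ± 7.89 normalized counts (SD, n = 3 each), and whether its reads stem from SLC7A2 transcripts was not tested.

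SLC7A1 (CAT1) is the cationic carrier of most cell types. It was at 107.4, 117.8 and 111.3 normalized counts in high-NFMP steers and at 80.4, 88.8 and 62.6 in low-NFMP steers, again without overlap. Its log2 fold change was 0.54 (standard error 0.27). It did not pass either test by edgeR, with an adjusted p of 0.472 and an unadjusted p of 0.0646. SLC7A2 and SLC7A1 were the only 2 of the 24 tested genes whose groups did not overlap, 1 in each direction, where 17.1% of all tested rows had no overlap (7.97% higher and 9.16% lower). SLC7A2 was counted above SLC7A1 in 6 of 6 steers, 1.79 to 2.16 times as often in high-NFMP steers and 3.74 to 6.05 times in low-NFMP steers. The log2 ratio was 0.94 ± 0.15 against 2.18 ± 0.37 (SD, n = 3 each). This pair was chosen because its genes separated the groups in opposite directions, so the ratio had to separate them too and is given as a description with no test.

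Among the SLC1A genes, SLC1A3 (EAAT1), a glutamate and aspartate carrier, was the most counted, at 401.3, 255.6 and 486.4 normalized counts in high-NFMP steers and 446.9, 528.4 and 386.7 in low-NFMP steers. The groups overlapped, and the log2 fold change was -0.25 (standard error 0.24). SLC1A5 (ASCT2), the glutamine exchanger, was at 194.4 ± 60.7 against 146.5 ± 34.1, and SLC1A4 (ASCT1), its relative for alanine, serine and cysteine, at 72.1 ± 22.1 against 46.0 ± 33.3 (SD, n = 3 each). Their log2 fold changes were 0.41 and 0.64, with unadjusted edgeR p of 0.160 and 0.179. Without steer 3-3, SLC1A4 was past the p and fold limits, at a log2 fold change of 1.41 (unadjusted p = 0.00613 by edgeR), as were 3.14% of rows in that direction. With any other steer left out SLC1A4 lay between 0.36 and 0.88, and with age as a term it was at 0.28. SLC1A5 lay between 0.14 and 0.62 with a steer left out. SLC1A1 (EAAT3) had 7 to 13 counts and lies beside SPATA6L, which it overlaps and which had 2691 to 3791 counts per library.

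The 15 genes that the filter removed were SLC7A5, SLC38A11, SLC1A2, SLC38A8, SLC1A7, SLC7A11, SLC38A5, SLC7A9, SLC43A3, SLC38A3, SLC7A14, SLC36A3, SLC7A4, SLC36A2 and SLC1A6, each with at most 22 counts in any library. SLC1A6, a glutamate carrier of the cerebellum, was counted 3 times in steer 3-1 and not at all in the other 5 libraries, and a count of 0 allows up to 0.184 CPM at the smallest library. SLC38A11, a little-studied relative of the SLC38A carriers, was counted 9, 16 and 17 times in high-NFMP steers and 4, 2 and 5 times in low-NFMP steers. SLC38A8, a glutamine carrier known from the eye, was counted 7, 8 and 11 against 3, 3 and 5 times. In normalized counts the groups did not overlap for 3 of the 15 genes, SLC38A11, SLC38A8 and SLC7A14, with high NFMP the higher each time. Of all 7976 rows that the filter removed, 7.41% had no overlap (5.24% higher and 2.17% lower). SLC7A14 was counted only 2, 3 and 4 against 2, 2 and 2 times, so its groups tied in the counts themselves.

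When no filter was applied, the log2 fold change of SLC38A11 was 1.99 (standard error 0.77, unadjusted p = 0.0128 and adjusted p = 0.302 by edgeR), past the p and fold limits, as were 2.72% of all rows in that direction. It was the only family gene to pass there. In the fits without steer 3-8, 3-1, 3-3 or 10-16 it came through the filter on the counts of the high-NFMP steers 10-8 and 10-9 alone, and it was not tested without either of these. A gene let in by its high group had to differ, so its log2 fold changes there, 2.25, 2.06, 1.69 and 2.36, are a description and give no support. They were past both limits, as were 2.37%, 2.90%, 3.14% and 2.88% of tested rows in that direction. Without a filter SLC38A8 was at 1.30 (standard error 0.87, unadjusted p = 0.143 by edgeR). SLC38A8 overlaps NECAB2, a calcium-binding protein gene that also had more counts in the high-NFMP group, 42.8 ± 14.3 against 21.7 ± 7.70 normalized counts (SD, n = 3 each).

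Other genes that handle amino acids were read from the same fit. Of 17 further amino acid carriers, 10 were tested and none passed the p and fold limits. At an unadjusted p below 0.05, SLC15A4, a lysosomal histidine and peptide carrier, was higher in the high-NFMP group (log2 fold change 0.72, standard error 0.20). SLC16A10 (TAT1), which carries aromatic amino acids, and SLC6A20, an imino acid carrier, were lower (-0.90 and -0.76, standard errors 0.28 and 0.31). SLC16A10 was counted 79, 45 and 61 times in high-NFMP steers and 131, 133 and 109 times in low-NFMP steers. These 3 of 10 genes were picked for their p, which 11.5% of all tested rows reached, and their adjusted p lay between 0.156 and 0.372 by edgeR. Their groups did not overlap, nor did those of CTNS, SLC15A3 and SLC6A17, which were higher in high NFMP. That makes 6 of the 10 tested genes, 4 higher and 2 lower. Among all tested rows 17.1% had no overlap (7.97% higher and 9.16% lower). SLC15A3 had 11 to 24 counts in high NFMP against 8 to 10 in low NFMP and SLC6A17 11 to 40 against 9 to 11. Both lay at the edge of the filter, so they give no support. The most counted carriers of this list were SLC15A4, at 337.1 ± 7.32 against 204.5 ± 25.8 normalized counts, and CTNS, the lysosomal cystine exporter, at 231.2 ± 9.98 against 169.6 ± 29.3 (SD, n = 3 each).

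All 25 genes of branched-chain amino acid breakdown were tested and none passed the threshold, with a median log2 fold change of -0.17. At an unadjusted p below 0.05 there were 3 of the 25, near the 11.5% of all tested rows in both directions, and all 3 were lower, as were 5.74% of rows. These were ACAT1, HIBADH and PCCB, enzymes of the later steps, with log2 fold changes of -0.78, -0.49 and -0.74, and their adjusted p lay between 0.257 and 0.326 by edgeR. AUH and ECHS1, the most counted genes of the list, had log2 fold changes of -0.24 and 0.14, and PCCA, which forms propionyl-CoA carboxylase with PCCB, and HSD17B10 both had 0.41. The groups did not overlap for 5 lower genes and 1 higher gene of the 25, beside 9.16% and 7.97% of all tested rows. Of 16 genes of glutamine, glutamate, alanine and aspartate metabolism, none passed the threshold. GOT2, the mitochondrial aspartate aminotransferase, and GLUL, the glutamine synthetase, were the most counted, at 9483 ± 1353 against 8511 ± 2045 and 5842 ± 1359 against 7360 ± 2175 normalized counts (SD, n = 3 each). ALDH4A1 and PYCR1, of proline metabolism, were higher at an unadjusted p below 0.05 (log2 fold change 0.75 each) and GLUD1, glutamate dehydrogenase, was lower (-0.46), which makes 3 of 16 beside 11.5% of all tested rows.

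The response to amino acid starvation, in which the factor ATF4 raises carriers and synthetic enzymes, was represented by 17 tested genes of 24 listed, and none passed the threshold. ATF4 stood at 42052 ± 3838 against 41082 ± 6194 normalized counts (SD, n = 3 each) and its target DDIT4 at 1996 ± 673.1 against 2638 ± 758.9. The kinase EIF2AK3, 1 of the 17, was lower at an unadjusted p of 0.0227 by edgeR, with a log2 fold change of -0.60. At an unadjusted p below 0.05, 5.74% of all tested rows were lower, so this is no result about the list. EIF2AK4, another kinase of the list, had a log2 fold change of -0.41 with overlapping groups (unadjusted p = 0.0653 by edgeR). ASNS, asparagine synthetase, was at 75.7 ± 17.9 against 67.3 ± 1.91. Among 35 genes of lysosomal amino acid sensing by mTORC1, all tested, 1 passed the threshold, which 3.90% of all tested rows did. This was FNIP2, a folliculin partner (log2 fold change 2.13, adjusted p = 0.00284 by edgeR). CASTOR2, a relative of the arginine sensor CASTOR1, and the leucine sensor SESN1 had the highest means over the 6 steers. However, SESN1 lay above the next gene, RRAGD, in steers 3-3 and 10-16 alone. At an unadjusted p below 0.05 there were 2 higher and 3 lower genes of the 35, near the 5.73% and 5.74% of all tested rows. SESN1 was at 2292 ± 262.9 against 4532 ± 1803 (log2 fold change -0.98, adjusted p = 0.156 by edgeR), with overlapping groups.

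**Figure D5:**
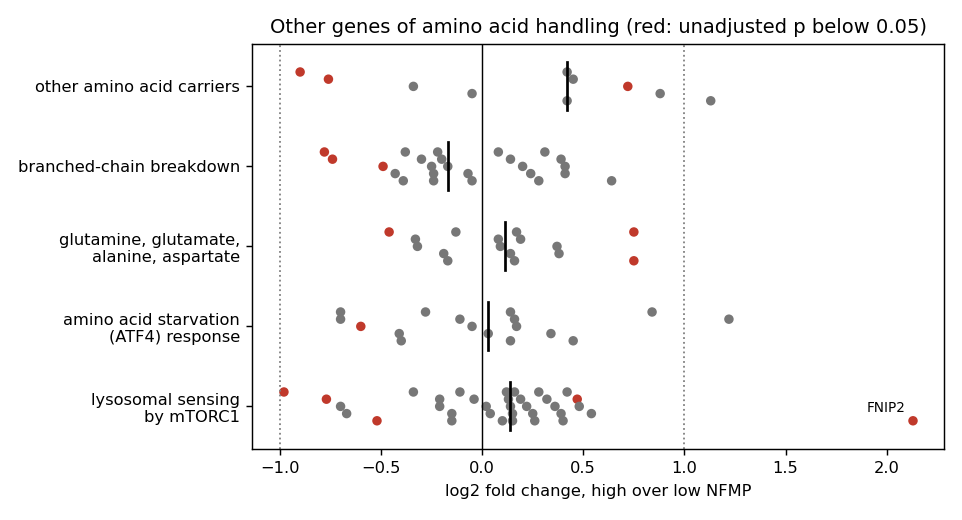
Log2 fold change of high over low NFMP for each tested gene of 5 lists of amino acid handling, with the median of a list as a black bar, genes at an unadjusted p below 0.05 in red and dotted lines at a fold change of 2. FNIP2, at 2.13, is the gene past both limits.

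Marker lists of other cell types were read beside these values. No adipocyte marker passed the p and fold limits, but 4 of 8 (ADIPOQ, CIDEA, CIDEC and PLIN4) were higher in the high-NFMP group at an unadjusted p below 0.05 (5.73% of all tested rows), and the median log2 fold change of the list was 0.62. Summed, the list held 306.0 to 726.5 CPM in high-NFMP steers and 281.0 to 398.2 in low-NFMP steers. Endothelial markers summed to 71.8 to 115.6 against 72.1 to 104.7, macrophage and leukocyte markers to 32.8 to 54.2 against 26.9 to 55.7 with AIF1 alone past the threshold, fibroblast markers to 717.4 to 830.9 against 575.3 to 770.4, and nerve and Schwann cell markers to 78.6 to 103.3 against 56.3 to 91.8. Red blood cell markers summed to at most 3.25 CPM. Only ALAS2 of that list was tested, and HBB and HBA had at most 18 and 10 counts. The sum is therefore not read as a measure of blood. Outside fat, 5 of 45 tested markers had an unadjusted p below 0.05, near the 11.5% of all tested rows, so the count is no result about the markers. MYL3 of slow fibres and PDGFRA of fibroblasts were lower in high NFMP (log2 fold changes -0.78 and -0.51, no overlap). CLDN5 of endothelium (0.93, no overlap) was higher, as were MBP of Schwann cells (0.76) and AIF1 (1.04), whose groups overlapped. No overlap was seen in 17.1% of all tested rows, and 3.90% were past both limits, as AIF1 was. These 5 were picked for their p and do not stand for their lists. The median log2 fold changes were 0.06 for slow fibre, 0.20 for fibroblast and 0.01 for endothelium markers. They were 0.31 for nerve and Schwann cell and 0.27 for macrophage and leukocyte markers. Slow fibre markers summed to 9317 to 13061 against 9758 to 12008 and fast fibre markers to 20399 to 27284 against 21837 to 28822. The part of any cell type in the values of the carriers was not tested.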

How the data were processed

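The authors made 3′ mRNA libraries from LT muscle and deposited a table of read counts by gene symbol, not normalized, for 6 steers. Their methods name Tophat2 with HTSeq and also Bowtie2, with uniquely and multiply aligned reads counted, and the submitters' processing notes name Bowtie2 and bedtools. Which of these made the table, and if strand was used, is not given in the sources. The fit was made by edgeR 4.0.16 under R 4.3.3 (filter with minimum count 10 and minimum total 15, TMM factors from 0.915 to 1.083, robust quasi-likelihood test, Benjamini-Hochberg adjustment over 15039 rows). The common biological coefficient of variation was 25.1%. No molecular identifiers were used, so reads are not independent molecules. A p sets the difference between groups against the spread between steers of 1 library each, which the fit moderates over all tested rows. Standard errors come from the fold change and the F statistic. The fits were tested on simulated data. Overlapping genes were looked up by name in the RefSeq table of ARS-UCD2.0, in which all 39 symbols were found. The study's build, UMD3.1, is another one, so no coordinates are given. Alternatives were no filter, 10 counts in every library, RLE factors, library totals, quantile normalization with limma 3.58.1, DESeq2 1.42.0, a term for age or for the first label number, and the removal of single steers. Per-steer values were given for the 8 most counted genes and those at an unadjusted p below 0.05, and others were added after their values were seen. The family and the lists were chosen with earlier results of these data known.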

Additional observations from a re-analysis of the deposited data

How the results depend on the processing

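No alternative gave a family gene an adjusted p below 0.05, and the lowest adjusted p in any of them was 0.0881 by edgeR (SLC7A8 without steer 3-8). The number of family genes past the p and fold limits, 0 in the report, was 1 higher gene without a filter (SLC38A11), and with a steer left out it ranged from 0 to 2 higher genes (SLC38A11 and SLC1A4) and from 0 to 1 lower gene (SLC7A8 without steer 3-8, or SLC38A4 without steer 10-16). With a steer left out, SLC38A11 came through the filter only on its high-NFMP counts, so its passes give no support. SLC7A2 kept its direction and an unadjusted p below 0.05 in all 14 alternatives. SLC38A4 had an unadjusted p above 0.05 in 9 of them. Over all rows, 586 passed both limits in the report, 969 without a filter and 364 with at least 10 counts in every library. Some of the other genes with small differences changed sign: SLC38A2 at -0.03 with library totals and from -0.07 to 0.15 with a steer left out, SLC43A2 at 0.10 with age as a term, and SLC7A10 at -0.08 with quantile normalization, -0.12 with the label number and from -0.33 to 0.37 with a steer left out. SLC36A1, SLC38A10 and SLC7A6, whose differences were also small, kept their sign. With a steer left out, SLC1A1 ranged from -0.21 to 0.14, SLC1A3 from -0.46 to 0.00, SLC38A6 from -0.02 to 0.35, SLC38A7 from -0.10 to 0.26, SLC43A1 from -0.24 to 0.80 and SLC7A6OS from -0.01 to 0.17. The cause was not tested. The share of the 3 leading genes, from their mean CPM, stayed between 61.8% and 63.0% over its alternatives. Genes of fewer than about 10 counts per library carry a large counting error.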
